A study of Mus musculus with 4 samples.

Results

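Male germ cells were isolated by sorting from mouse fetal testes kept in culture, and 42 genes known as markers of the somatic cells of the testis were followed in their RNA. The 42 genes were named as a list, with earlier results of these data known, as 22 markers of Sertoli cells, 7 of peritubular and stromal cells, 3 of endothelial cells and 10 of macrophages, out of the 36088 genes in the deposited table. All 42 were found there, each as 1 gene. Both groups were wild-type germ cells whose titles give day 14. The 2 control libraries came from cultures that received the solvent DMSO, and the 2 treated libraries came from cultures that received CBR-5884, a compound that the series' design text gives as blocking serine metabolism. The sources used here do not give the sort gate, the dose, the age of the fetuses or any pooling of testes. Libraries are called by the number in the table (2 or 4), since the table's numbers are not the replicate numbers of the titles. The design text calls the libraries of a condition biological replicates, but nothing ties a library to a named culture or animal, so p-values measure only the spread between these libraries.

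In a fetal testis the germ cells lie inside cords built by Sertoli cells, which carry the sex-determining programme of Sox9 and feed and signal to the germ cells. Flat peritubular cells wrap the cords, and stromal cells, vessels and resident macrophages fill the space between them. Whether RNA of these genes in a sorted germ cell library came from carried-over cells, from free RNA or from the germ cells themselves was not tested. Fewer cells of a type and less RNA per cell cannot be told apart in these libraries.

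Values are TPM, a measure of transcript abundance scaled for gene length and library total, which allows levels to be compared between genes. The estimated depth was 22448931 to 28189186 reads per library. As a check of the label, 4 of 15 germ cell markers are given here. Dazl, which binds mRNA in the germ line, stood at 892 and 897 TPM with DMSO against 906 and 897 TPM with CBR-5884. Ddx4, a helicase of the germ line, stood at 369 and 332 TPM against 365 and 359 TPM. Mael, a piRNA pathway protein, had 379 and 398 TPM against 403 and 396 TPM, and Sycp3, of the synaptonemal complex, 189 and 162 TPM against 196 and 192 TPM. The sum over 15 germ cell markers lay between 4995 and 5287 TPM, while the sum over the 22 Sertoli genes lay between 282 and 527 TPM, over the 7 stromal genes between 51.0 and 65.3 TPM, over the 10 macrophage genes between 35.2 and 93.1 TPM and over the 3 endothelial genes between 7.79 and 8.89 TPM. The germ cell markers were thus present in all 4 libraries, and in each the sum of every somatic list was lower than theirs. Single genes overlapped, since the lowest germ cell marker averaged 64.9 TPM and Clu, a Sertoli gene, averaged 116 TPM.

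**Figure D1:**
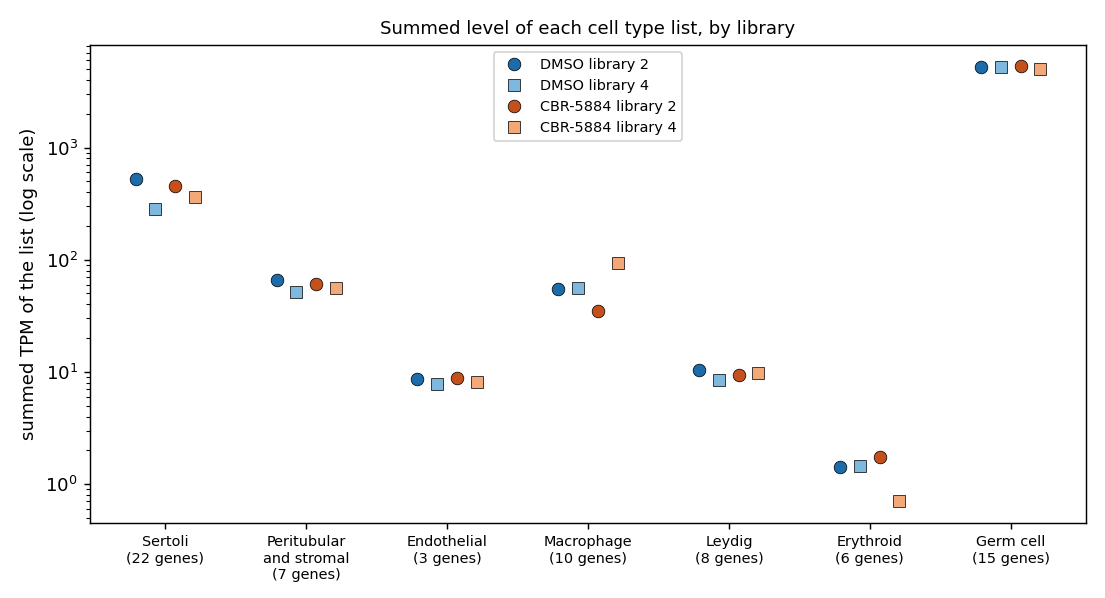
Summed TPM of each cell type list (vertical log axis) in the 4 libraries, with 1 symbol per library; the Leydig, erythroid and germ cell lists are shown for comparison. The Sertoli sum is highest in DMSO library 2 (527 TPM) and lowest in DMSO library 4 (282 TPM), and the macrophage sum is highest in CBR-5884 library 4 (93.1 TPM) and lowest in CBR-5884 library 2 (35.2 TPM), while the germ cell sum is nearly level.

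Most Sertoli genes, Gata4 apart, were higher in DMSO library 2 than in DMSO library 4, and no difference between the conditions was shown. Their sum was 527 TPM in DMSO library 2 and 282 TPM in DMSO library 4, a ratio of 1.87, and 453 and 359 TPM in CBR-5884 libraries 2 and 4. Both treated libraries thus lay between the 2 controls. By the same rough estimate DMSO library 2 was also the deeper control, with 24587102 reads against 22448931. The part of depth in the difference was not tested. As a share of each library's TPM, the 22 genes took 0.0525% and 0.0282% with DMSO and 0.0454% and 0.0372% with CBR-5884. The mean sum was 406 TPM in the treated libraries against 404 TPM in the controls, a ratio of 1.01.

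Transcription factors of Sertoli identity were at or below 16.8 TPM in every library. Sox9, the factor that sets Sertoli fate, had 9.60 and 5.37 TPM in DMSO libraries 2 and 4 and 8.02 and 6.83 TPM in CBR-5884 libraries 2 and 4. Wt1, a zinc finger factor of the gonadal soma (chromosome 2, 105126529 to 105173616), had 16.8 and 8.38 TPM against 14.7 and 11.8 TPM. For both genes DMSO library 2 was highest, DMSO library 4 lowest and the treated libraries lay inside that range. Nr5a1, the nuclear receptor also called SF-1, had 6.87 and 4.25 TPM against 6.70 and 3.47 TPM, so that library 2 was the higher of both pairs. Gata1, which serves Sertoli cells as well as blood cells, had 2.21 and 0.795 TPM against 2.70 and 1.91 TPM.

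Gata4 stood apart from the other Sertoli factors. This GATA factor of the gonadal soma (chromosome 14, 63198922 to 63271692) had 11.2 and 11.7 TPM with DMSO and 9.61 and 8.97 TPM with CBR-5884. Its control libraries were close to each other and both were above both treated libraries. On the log2(TPM + 1) scale CBR-5884 minus DMSO was −0.27 (SE 0.16, limma adjusted p = 0.998), so the difference did not pass the threshold.

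Secreted signals and hormones of Sertoli cells followed the order of Sox9 and Wt1. Amh, the anti-Müllerian hormone that makes the female duct regress (chromosome 10, 80805243 to 80807648), had 38.5 and 16.6 TPM in DMSO libraries 2 and 4 and 29.6 and 26.5 TPM in the treated libraries. An estimated 1281 and 510 reads lay behind the 2 control values. Their TPM ratio was 2.33, with a 95% interval of 2.10 to 2.59 that covers counting error only. Dhh, the hedgehog ligand for Leydig and peritubular cells, had 6.05 and 2.94 TPM against 4.42 and 3.84 TPM. Its level is uncertain, since 23.8% of the 31-base words of its transcripts are shared with other genes, among them Rhebl1. Kitl, the ligand of the germ cell receptor Kit, had 12.0 and 4.95 TPM against 8.96 and 8.55 TPM. All 3 ligands had DMSO library 2 highest and DMSO library 4 lowest.

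The inhibin subunits followed the same order. Inha, the alpha subunit (chromosome 1, 75507077 to 75510366), had 28.8 and 15.5 TPM in DMSO libraries 2 and 4 and 25.9 and 22.8 TPM with CBR-5884. Inhbb, the beta B subunit, had 6.33 and 3.83 TPM against 5.80 and 5.01 TPM. Ptgds, a prostaglandin D synthase, had the widest control ratio of the tested Sertoli genes, 2.90, with 12.0 and 4.15 TPM against 5.96 and 6.70 TPM. Its counting interval, 2.16 to 3.91, is rough, since the gene has 5 transcripts. Hsd17b1, a steroid dehydrogenase, had 2.15 and 0.897 TPM against 1.53 and 1.57 TPM.

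The most abundant members were Clu, Aard and Cst9. Clu, the secreted chaperone clusterin (chromosome 14, 65968483 to 65981547), had 148 and 90.3 TPM in DMSO libraries 2 and 4 and 125 and 102 TPM in CBR-5884 libraries 2 and 4. Aard, a small protein rich in alanine and arginine (chromosome 15, 52040107 to 52045722), had 87.1 and 39.7 TPM against 79.3 and 54.1 TPM. Cst9, a cystatin of the fetal testis (chromosome 2, 148835147 to 148838738), had 57.9 and 27.5 TPM against 54.9 and 42.7 TPM. In all 3 the order of the libraries was the same, with DMSO library 2 first, then CBR-5884 library 2, CBR-5884 library 4 and DMSO library 4.

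Cldn11, the tight junction protein of the later blood-testis barrier (chromosome 3, 31149920 to 31164324), had 28.7 and 15.8 TPM with DMSO and 26.8 and 19.2 TPM with CBR-5884. Defb19, a beta-defensin of Sertoli cells (chromosome 2, 152576086 to 152580312), had 36.2 and 18.9 TPM against 28.8 and 20.6 TPM. Mro, a nucleolar protein of the male gonad, had 13.7 and 8.31 TPM against 11.6 and 11.4 TPM. In each of the 3, the control libraries again enclosed both treated libraries. Rhox8, a homeobox gene of Sertoli cells on the X chromosome, differed from them, with 2.09 and 1.26 TPM against 2.60 and 1.05 TPM.

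Fshr, Tsx and Rhox5 were near or at 0. Fshr, the receptor for follicle-stimulating hormone, had 0.169 and 0.0228 TPM with DMSO and 0.163 and 0.119 TPM with CBR-5884, on an estimated 1 to 9 reads per library. Tsx, an X-linked gene of Sertoli and germ cells, had 0.256 and 0.483 TPM against 0.659 and 0.361 TPM, on 4 to 12 reads. Rhox5, a homeobox gene under androgen control after birth, was listed at 0 in all 4 libraries. These 3 genes fell under the filter of a mean of at least 1 TPM and were not tested.

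**Figure D2:**
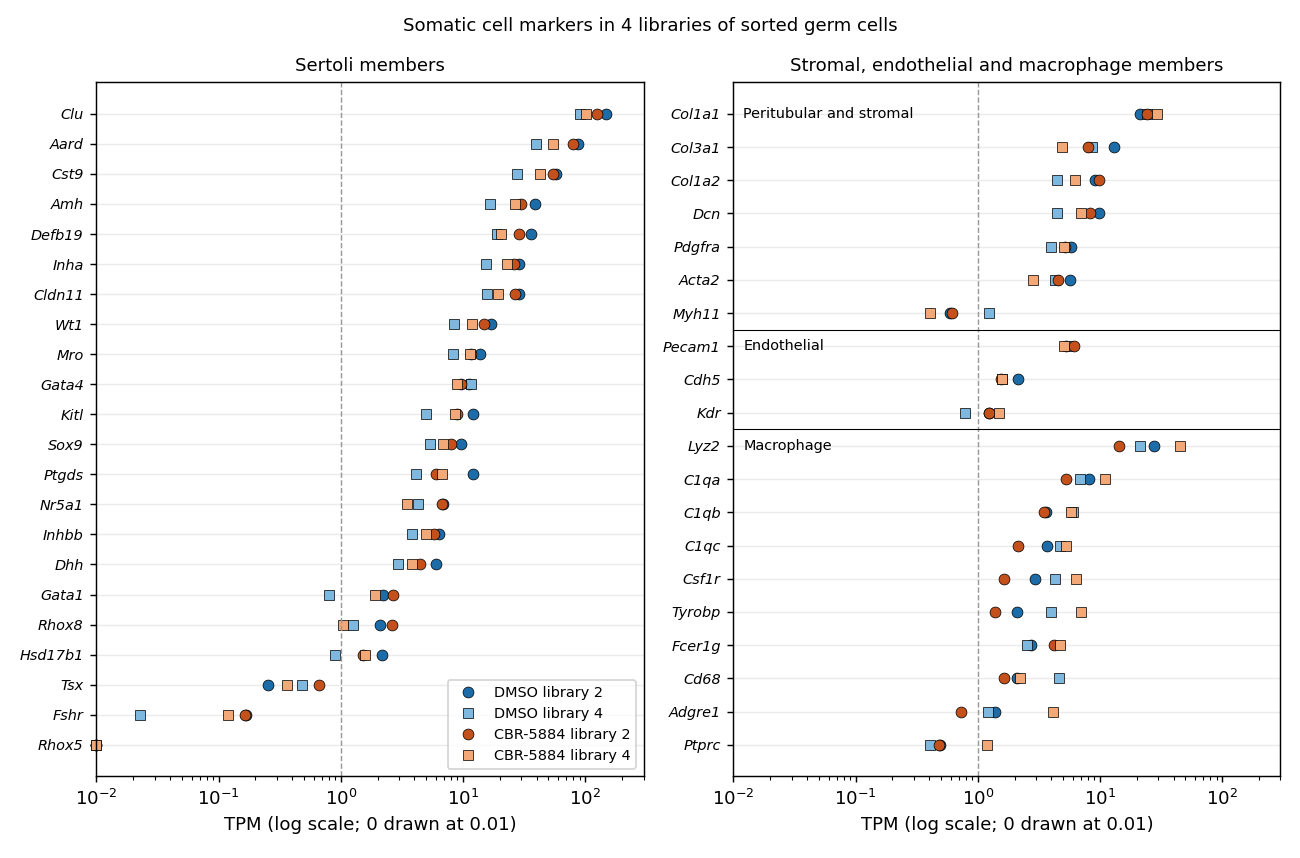
TPM (horizontal log axis, 0 drawn at 0.01) of each of the 42 genes, with 1 symbol per library and genes ordered by mean within each list; the dashed line marks 1 TPM. For most Sertoli genes DMSO library 2 lies rightmost and DMSO library 4 leftmost, as for Amh with 38.5 and 16.6 TPM, and for most macrophage genes CBR-5884 library 4 lies rightmost, as for Lyz2 with 45.5 TPM.

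Counted over the 19 tested Sertoli genes, 16 were at least 1.5-fold higher on the log2(TPM + 1) scale in DMSO library 2 than in DMSO library 4, where 5.19% of all 14920 tested genes were. None of the 19 was 1.5-fold higher in DMSO library 4, against 5.15% of all tested genes. The 3 inside 1.5-fold on that scale were Gata4, Nr5a1 and Rhox8, though Nr5a1 (1.62) and Rhox8 (1.66) were past it by TPM alone. The median TPM ratio of the 19 between these libraries was 1.91, beside 1.01 over all tested genes. The counting interval of the ratio lay above 1 for 18 of the 19, all but Gata4, against 28.7% of all tested genes. Such intervals are rough for genes with more than 1 transcript. DMSO library 2 was the highest and DMSO library 4 the lowest of the 4 libraries for 15 of the 19, against 11.0% of all tested genes. At 2-fold on the log2(TPM + 1) scale the count fell from 16 to 5, namely Amh, Kitl, Aard, Cst9 and Ptgds, beside 1.81% of all tested genes. That scale understates ratios of low genes. By TPM alone Gata1 (2.78), Hsd17b1 (2.40), Dhh (2.06) and Wt1 (2.01) were past 2-fold too. Of 12 tested genes of another Sertoli list 2 were at least 1.5-fold higher in DMSO library 2 and 1 the other way, with a median TPM ratio of 1.18. These comparisons set 1 library against another and have no replicate check, and the members were listed with earlier results known.

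Between the treated libraries, 16 of the 19 differed by less than between the controls (53.2% of all tested genes), and the exceptions were Gata4, Nr5a1 and Rhox8. The value was higher in CBR-5884 library 2 than in library 4 for 17 of the 19, all but Hsd17b1 and Ptgds, beside 51.5% of all tested genes. In CBR-5884 library 2, Nr5a1 and Rhox8 were at least 1.5-fold higher than in library 4, which is 2 of 19 beside 3.70% of all tested genes. In CBR-5884 library 4, 0 of 19 were 1.5-fold higher than in library 2, beside 4.46% of all tested genes. The sum over the 22 genes was 1.26 times as high in library 2 as in library 4.

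The 250 bases before the start site of Sertoli genes were read from RefSeq (GRCm38.p6), which lists 11 of the 22 genes, 6 of them with the start that GENCODE gives to the gene. These 6 are Cldn11, Cst9, Dhh, Fshr, Inhbb and Tsx, whatever their values. The windows of Cst9, Cldn11 and Dhh are shown, and these genes lay 2.11, 1.82 and 2.06 times higher in DMSO library 2 than in DMSO library 4. Inhbb lay 1.65 times higher there, and its window is not printed. Capitals mark the letters searched for on both strands: AGATAA or TGATAA for GATA factors, CAAGGTCA or the AGGTCA inside it for Nr5a1, and ACAAAG or ACAATG for SOX factors. The windows are chr2:148834897-148835146 (+ strand), chr3:31149670-31149919 (+ strand) and chr15:98898541-98898790 (- strand), each printed 5′ to 3′ on the strand of its gene.
Cst9: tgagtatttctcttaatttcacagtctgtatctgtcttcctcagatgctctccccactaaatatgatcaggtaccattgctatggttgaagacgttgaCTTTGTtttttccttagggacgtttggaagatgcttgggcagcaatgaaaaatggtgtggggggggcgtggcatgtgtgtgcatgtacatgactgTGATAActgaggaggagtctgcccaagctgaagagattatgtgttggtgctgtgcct
Cldn11: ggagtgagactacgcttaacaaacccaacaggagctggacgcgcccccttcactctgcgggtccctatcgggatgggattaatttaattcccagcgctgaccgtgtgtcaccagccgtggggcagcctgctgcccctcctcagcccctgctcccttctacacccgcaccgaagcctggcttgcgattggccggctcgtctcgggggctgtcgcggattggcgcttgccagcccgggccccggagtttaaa
Dhh: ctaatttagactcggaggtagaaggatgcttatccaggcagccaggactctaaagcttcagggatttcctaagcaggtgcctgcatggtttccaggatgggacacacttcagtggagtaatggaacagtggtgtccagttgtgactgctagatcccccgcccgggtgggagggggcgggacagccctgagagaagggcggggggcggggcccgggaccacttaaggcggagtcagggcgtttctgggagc

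Cst9 held a GATA match that begins 57 bases before the start and a SOX match, on the other strand, that begins 152 bases before it. Cldn11 and Dhh held none of these letters in the window, nor did Inhbb and Fshr, whose windows are not printed. Among the 6 windows, 2 held GATA letters, 1 held Nr5a1 letters and 1 held SOX letters, where 16.6%, 14% and 25.2% of all 32841 RefSeq windows of this length held them. The other GATA match and the Nr5a1 match were in the window of Tsx, which was not tested and whose control values ran the other way. A match is a description of letters, and binding was not measured.

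Stromal and peritubular genes had a lower sum, and most tested ones were, like the Sertoli genes, higher in DMSO library 2. The rough counting interval of DMSO library 2 over library 4 lay above 1 for 5 of the 6, all but Col1a1, beside 28.7% of all tested genes. The same 5 were higher in CBR-5884 library 2 than in library 4, beside 51.5%. Dcn and Pdgfra had DMSO library 2 highest and DMSO library 4 lowest, 2 of 6 beside 11.0%. Col1a2 and Dcn, a type I collagen chain and the collagen-binding proteoglycan decorin, had the widest control ratios of the tested genes. Col1a2 had 9.17 and 4.44 TPM in DMSO libraries 2 and 4 and 9.84 and 6.27 TPM with CBR-5884. Dcn had 9.88 and 4.41 TPM against 8.35 and 6.96 TPM. On the log2(TPM + 1) scale these were 2 of the 6 tested genes at least 1.5-fold higher in DMSO library 2 than in library 4, beside 5.19% of all tested genes. At 2-fold 1, Dcn, was left on that scale, though the TPM ratio of Col1a2 was 2.07. Between the treated libraries 1 of 6, Col3a1, was 1.5-fold higher in library 2, beside 3.70%. Pdgfra, the receptor of stromal progenitors, had 5.82 and 3.95 TPM against 5.19 and 5.04 TPM, and Acta2, the smooth muscle actin of peritubular cells, 5.71 and 4.27 TPM against 4.53 and 2.84 TPM. Myh11, the smooth muscle myosin, was under the filter with 0.587 and 1.24 TPM against 0.614 and 0.404 TPM.

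The other fibrillar collagens had differences of opposite sign. Col1a1, the partner chain of Col1a2 (chromosome 11, 94936224 to 94953042), had 21.2 and 24.1 TPM with DMSO and 24.3 and 29.1 TPM with CBR-5884, and its log2 difference was 0.23 (SE 0.14, limma adjusted p = 0.998). Col3a1, the type III chain (chromosome 1, 45311538 to 45349706), had 13.0 and 8.65 TPM against 8.03 and 4.88 TPM, and its log2 difference was −0.67 (95% interval −1.38 to 0.04, limma adjusted p = 0.998). The groups did not overlap for either gene, though for Col1a1 the nearest libraries stood at 24.1 and 24.3 TPM, and neither passed the threshold. The sum over the 7 genes was 65.3 and 51.0 TPM with DMSO and 60.9 and 55.5 TPM with CBR-5884.

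The 3 endothelial genes had the lowest sum of the 4 lists of members, which differ in size. A further endothelial list of 12 genes summed to 97.3 to 119 TPM, most of it from Erg, which averaged 66.9 TPM. Over the 7 tested genes of that list the median of the mean TPM was 3.98. Pecam1, a junction protein of endothelium that early germ cells are also known to carry (chromosome 11, 106654217 to 106750628), had 5.28 and 5.43 TPM with DMSO and 6.11 and 5.09 TPM with CBR-5884. Cdh5, the vascular cadherin, had 2.15 and 1.57 TPM against 1.54 and 1.57 TPM. Kdr, the main receptor for the growth factor Vegfa, had 1.24 and 0.782 TPM against 1.24 and 1.48 TPM. On the log2(TPM + 1) scale 0 of the 3 genes were past 1.5-fold between the libraries of either condition, though the TPM ratio of Kdr was 1.58 in the controls. Of all tested genes, 5.19% and 5.15% were past it in the controls and 4.46% and 3.70% in the treated libraries. With 3 genes the count says little. For Cdh5 and Kdr the groups did not overlap, by less than the last digit printed, with log2 differences of −0.16 (SE 0.28) and 0.24 (SE 0.31), both smaller than their standard errors.

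Macrophage genes had an order of their own, with the spread between the treated libraries. Their sum was 54.6 and 55.8 TPM in DMSO libraries 2 and 4 and 35.2 and 93.1 TPM in CBR-5884 libraries 2 and 4, so the treated libraries were 2.65-fold apart and enclosed both controls. Lyz2, the lysozyme of myeloid cells and the most abundant of the list (chromosome 10, 117277331 to 117282321), had 27.4 and 21.3 TPM against 14.2 and 45.5 TPM. The ratio of the treated libraries was 3.20 (counting interval 2.87 to 3.58). Lyz2 shares 32.8% of its 31-base words with Lyz1, which was listed at 0 in 3 libraries and at 0.0450 TPM in CBR-5884 library 4.

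Adgre1, Tyrobp and Csf1r had the widest ratios between the treated libraries among the macrophage genes. Csf1r, the receptor that macrophages need for survival, had 2.95 and 4.25 TPM in DMSO libraries 2 and 4 and 1.64 and 6.34 TPM in CBR-5884 libraries 2 and 4, though it shares 15.0% of its 31-base words with genes such as Hmgxb3. Adgre1, the F4/80 antigen, had 1.38 and 1.20 TPM against 0.725 and 4.12 TPM. Its 15 and 78 estimated reads in the treated libraries are rough, since the gene has 5 transcripts. Tyrobp, the signalling adaptor DAP12, had 2.08 and 3.94 TPM against 1.38 and 7.04 TPM. In these 3 genes CBR-5884 library 2 was the lowest of the 4 libraries and CBR-5884 library 4 the highest. Ptprc, the common leukocyte antigen CD45, was under the filter, with 0.493 and 0.406 TPM against 0.485 and 1.20 TPM.

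The complement C1q chains, which assemble into 1 protein and are made by tissue macrophages, lay side by side on chromosome 4. C1qa had 8.17 and 6.90 TPM with DMSO and 5.29 and 11.0 TPM with CBR-5884. C1qb had 3.61 and 6.03 TPM against 3.47 and 5.79 TPM, and C1qc 3.68 and 4.70 TPM against 2.14 and 5.29 TPM. All 3 were higher in CBR-5884 library 4 than in library 2, by 2.08, 1.67 and 2.47 times in TPM. Cd68, a lysosomal protein of macrophages, had its highest value in a control, with 2.08 and 4.58 TPM against 1.64 and 2.20 TPM.

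Fcer1g was the 1 member of the 42 with an unadjusted p under 0.05 for the conditions. This signalling chain of Fc receptors (chromosome 1, 171229572 to 171234365) had 2.73 and 2.53 TPM with DMSO and 4.20 and 4.71 TPM with CBR-5884. Both treated libraries were above both controls, unlike the other macrophage genes. Its log2 difference was 0.59 (95% interval 0.03 to 1.15, limma adjusted p = 0.998). The 30 to 64 estimated reads per library are rough, since the gene has 3 transcripts.

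Over the 9 tested macrophage genes, 7 were at least 1.5-fold higher in CBR-5884 library 4 than in library 2, beside 4.46% of all tested genes, and 0 the other way, beside 3.70%. The 2 inside 1.5-fold were Cd68 and Fcer1g. The median TPM ratio of the 9 was 2.47, beside 0.993 over all tested genes. The counting interval of the ratio lay above 1 for the same 7, against 23.9% of all tested genes, and is rough for genes with more than 1 transcript. CBR-5884 library 4 was the highest and library 2 the lowest of the 4 libraries for 6 of the 9, against 7.46% of all tested genes. At 2-fold on the log2(TPM + 1) scale the count was 5, beside 1.48%, and C1qa was past 2-fold by TPM alone (2.08). In the controls, Cd68, C1qb and Tyrobp were at least 1.5-fold higher in DMSO library 4 than in library 2, which is 3 of 9 beside 5.15%, and 0 of 9 were higher in library 2, beside 5.19%. The macrophage and Sertoli lists thus did not share their order of libraries. DMSO library 4 had the lowest Sertoli sum and a macrophage sum of 55.8 TPM, close to the 54.6 TPM of DMSO library 2.

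**Figure D3:**
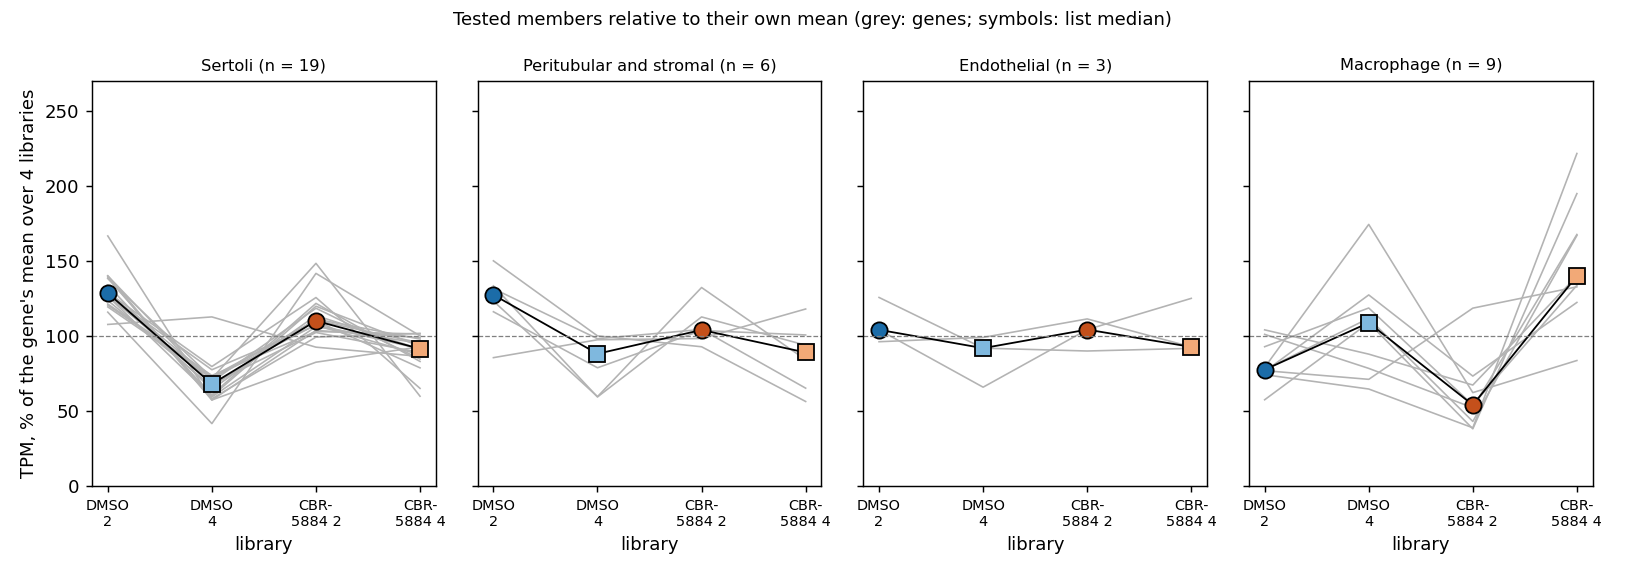
TPM of each tested gene as a percentage of its own mean over the 4 libraries (vertical axis), by library, in 4 panels for the 4 lists; grey lines are genes, symbols are list medians, and lines only join the values of a gene. The Sertoli median is 129% in DMSO library 2 and 68.2% in DMSO library 4, and the macrophage median is 54.2% in CBR-5884 library 2 and 140% in CBR-5884 library 4.

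Between the conditions, none of the 42 genes was shown to differ. With limma on log2(TPM + 1), 0 of the 37 tested members and 0% of all 14920 tested genes passed a Benjamini-Hochberg adjusted p under 0.05. At an unadjusted p under 0.05 there was 1 of the 37, beside 3.66% of all tested genes. The fold change was positive for 24 of the 37 (47.2% of all tested genes), but for only 9 of the 37 when DMSO library 4 was left out. The groups did not overlap with CBR-5884 higher for 3 of the 37, Col1a1, Kdr and Fcer1g (13.6% of all tested genes), and with CBR-5884 lower for 3, Gata4, Col3a1 and Cdh5 (17.7%). Both shares of the members were below those of all genes.

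By list, the median log2 fold change was 0.09 over 19 Sertoli genes, of which 13 were positive and 6 negative, with a range of −0.27 to 0.45. It was 0.12 over 6 stromal genes, 0.05 over 3 endothelial genes and 0.03 over 9 macrophage genes, beside −0.01 over all tested genes. Leaving out DMSO library 2 moved the Sertoli median to 0.43, and leaving out DMSO library 4 moved it to −0.33. For the macrophage median the values were 0.65 when CBR-5884 library 2 was left out and −0.65 when library 4 was. The direction of both lists therefore turned with a single library.

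Among the most abundant Sertoli genes, Clu averaged 119 ± 40.9 TPM in controls against 113 ± 16.1 TPM in treated libraries (SD, n = 2), and the 95% interval of the log2 difference was −0.60 to 0.53. Aard had 63.4 ± 33.5 and 66.7 ± 17.8 TPM (SD, n = 2; interval −0.74 to 1.04). Cst9 had 42.7 ± 21.6 and 48.8 ± 8.62 TPM (SD, n = 2; interval −0.54 to 1.08), and Amh had 27.5 ± 15.5 and 28.0 ± 2.20 TPM (SD, n = 2; interval −0.73 to 1.01). In these 4 genes the SD of the controls exceeded the difference between the condition means. The intervals of Inha (−0.48 to 0.86), Cldn11 (−0.63 to 0.81), Defb19 (−0.86 to 0.66), Wt1 (−0.63 to 0.91) and Mro (−0.49 to 0.69) also held 0.

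Lyz2 averaged 24.4 ± 4.34 TPM in controls against 29.8 ± 22.1 TPM in treated libraries (SD, n = 2; interval −1.11 to 1.26). Pecam1 had 5.35 ± 0.111 and 5.60 ± 0.722 TPM (SD, n = 2; interval −0.46 to 0.55). The intervals of the members were wide. Their median half-width was 0.79 on the log2 scale, or 1.73-fold, for the Sertoli list and 0.90, or 1.87-fold, for the macrophage list. It was 0.37, or 1.30-fold, over all tested genes and 0.20, or 1.15-fold, over the 15 germ cell markers. Widths differed between genes, and those of Gata4 and Fcer1g were narrower than the medians of their lists.

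**Figure D4:**
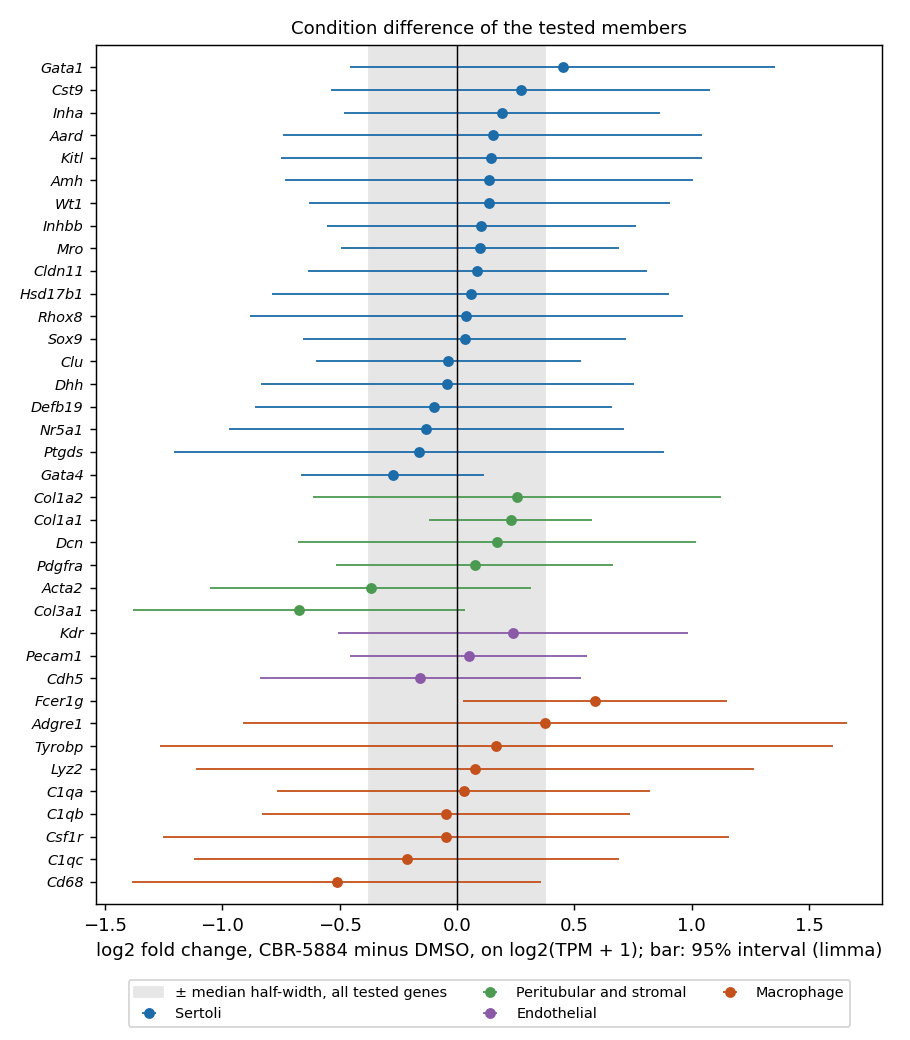
Log2 fold change of CBR-5884 against DMSO on log2(TPM + 1) for the 37 tested genes (horizontal axis), with 95% intervals from limma, grouped by list; the grey band is the median half-width over all tested genes (0.37). The interval of Fcer1g (0.03 to 1.15) is the only one of the 37 that does not hold 0.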

How the data were processed

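RNA of 4 libraries, 2 per condition, was sequenced. The submitters' processing notes name fastp, kallisto and the build mm10, and their versions and settings were not given in the sources used here. In the deposited table a gene's values recur for each transcript, and 1 was used per gene and library. The columns, per the file headers, are TPM and scaled reads per base, both deposited as gene-level signal values and neither as counts, so edgeR and DESeq2 were not used. Library sums of TPM were 966761 to 1002976.

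The most frequent step between low scaled reads in genes with 1 transcript was taken as the value of 1 read. Dividing by it estimated the reads per gene, but 48.5 to 50.1% of low values in those genes and only 35.4 to 36.3% of low values over all genes were whole at a tolerance of 0.05, so no count test was run. In genes with more than 1 transcript the estimate can be off by an unknown factor, since the step came from genes with 1. Adgre1, with 5 transcripts, was given 25 reads at 1.38 TPM in DMSO library 2, and Inhbb, with 1, 546 reads at 6.33 TPM. Read numbers of genes with several transcripts are therefore rough, as are library depths. Counting intervals are exact binomial 95% intervals of these estimates, as rough as they are, and hold counting error only.

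Conditions were compared by a two-sided limma-trend fit (limma 3.58.1, R 4.3.3) of log2(TPM + 1), pseudocount 1, over 14920 genes whose mean TPM was 1 or more, with p-values adjusted over all of them. Fold changes of low genes are understated, and fold thresholds between libraries were set on the same scale. The fit was tested on simulated data, but that test does not show that changes of 1.5-fold would be called here. With 2 against 2 libraries an exact permutation test cannot go below 0.33. Fold changes are given for members with a mean of at least 10 TPM, the most abundant of each list, and those with groups that do not overlap. Word sharing used GENCODE M21 transcripts (GRCm38, also mm10), which gave positions too, 1-based. The table's library names (2 and 4) give the condition but not which labelled replicate a library is, and only the condition was used. Members and lists were chosen with earlier results of these data known. The named genes are all 42 members, up to 4 of each other list by mean TPM, and 4 germ cell genes. The erythroid list departs from this, since Alas2, its 1 tested gene, and genes listed at 0 in all 4 libraries are named. Alternatives changed the pseudocount, filter, scaling, measure, variance estimate, block and libraries.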

Additional observations from a re-analysis of the deposited data

How the results depend on the processing

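Members called stayed at 0 in the alternatives that kept all 4 libraries. Over all genes, 1 was called with robust variance estimates and 1 with scaled reads per base. Log2 values with a library left out ranged as follows: Sertoli median −0.33 to 0.43 and sum −0.37 to 0.53, macrophage median −0.65 to 0.65 and sum −0.65 to 0.75, Amh −0.45 to 0.72, Wt1 −0.33 to 0.60, Cldn11 −0.33 to 0.50, Inha −0.24 to 0.62, Clu −0.39 to 0.32, Aard −0.41 to 0.71, Cst9 −0.25 to 0.80, Defb19 −0.55 to 0.35, Mro −0.23 to 0.43, Pecam1 −0.062 to 0.16, Lyz2 −0.73 to 0.88, Col1a1 0.10 to 0.35, Col3a1 −0.98 to −0.36, Kdr 0.08 to 0.40 and Cdh5 −0.30 to −0.01. Gata4 ranged from −0.32 to −0.23 and Fcer1g from 0.52 to 0.65, so both kept their sign, as did Col1a1, Col3a1, Kdr and Cdh5. The ends come from the fits without DMSO library 4 or 2. For Gata4, Pecam1, Col1a1, Col3a1 and the macrophage values they come from the fits without CBR-5884 library 2 or 4. Fits on 3 libraries assume that a lone library varies like the others.

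Without Col1a1 the stromal sum was 0.71 higher (log2) in DMSO library 2 than in 4, and −0.47 for CBR-5884 library 4 over 2. As medians these were 0.91 and −0.58. Without Pecam1 the endothelial values were 0.52 and 0.14, and as medians 0.29 and 0.017, with −0.16 between conditions. At 2-fold on log2(TPM + 1), 5 Sertoli and 1 stromal gene were past the threshold between the controls. With a pseudocount of 0.1 or with scaled reads, 1 endothelial gene was past 1.5-fold there.

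With a replicate block by library number 0 genes were called. In this balanced layout such a block cannot change a fold change, so the Sertoli median stayed at 0.09 by construction. The block also leaves less from which to estimate the spread, so its 0 adds little. The deviations of same-numbered libraries correlated at 0.20 over 14920 genes, but the libraries share only a number.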

Other observations

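Other markers of somatic cells, in lists set beside the 42 genes, gave a mixed picture. Of 15 further Sertoli genes 12 were tested, with sums of 316 to 334 TPM per library and a sum ratio of 1.04 between DMSO libraries 2 and 4, carried by Ctsl (226 and 196 TPM in controls, 215 and 215 TPM in treated libraries) and Mfge8 (63.9 and 85.6 against 62.6 and 64.9 TPM), both made by many cell types. Sox8, a relative of Sox9, had 8.04 and 5.42 against 6.20 and 5.64 TPM, and Trf, transferrin, 6.10 and 10.5 against 5.30 and 6.06 TPM. Of 8 genes of the steroid-making Leydig cells 2 were tested, with sums of 8.41 to 10.4 TPM. Hsd17b3, which fetal Sertoli cells also express, had 3.43 and 2.89 against 4.53 and 4.45 TPM, Star 3.58 and 3.02 against 2.35 and 3.23 TPM, and Insl3 0.515 and 0 against 0.589 and 0 TPM. Of 6 erythroid genes 1, Alas2, was tested, with a mean of 1.20 TPM. Its TPM in CBR-5884 library 4 was 0.219 times that in library 2. On the log2(TPM + 1) scale it was past 1.5-fold in that direction, beside 3.70% of all tested genes. The 6 genes summed to 1.42 and 1.45 TPM in controls against 1.74 and 0.707 TPM in treated libraries. Hbb-bs, Hbb-bt, Hba-a1 and Hbb-y were listed at 0 in all 4 libraries.

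Among 17 further stromal genes, 12 of them tested (sums 216 to 292 TPM), Sparc, a matrix protein that Sertoli cells also make, had 126 and 66.7 TPM in controls against 99.3 and 89.8 TPM in treated libraries, the order of the Sertoli genes. Vim had 37.7 and 22.5 against 33.3 and 30.2 TPM, while Fn1 had 86.1 and 97.8 against 87.3 and 100.4 TPM. On the log2(TPM + 1) scale 4 of the 12 were at least 1.5-fold higher in DMSO library 2 than in library 4, beside 5.19% of all tested genes. There were 0 the other way, beside 5.15%, and 0 at 2-fold, beside 1.81%. The median TPM ratio was 1.60. DMSO library 2 was highest and DMSO library 4 lowest for 5 of the 12, beside 11.0%. Of 12 further endothelial genes 7 were tested (97.3 to 119 TPM), led by Erg with 75.4 and 70.3 against 63.4 and 58.6 TPM, far above Cdh5. Of 16 further leukocyte genes 10 were tested (30.9 to 45.8 TPM). On the log2(TPM + 1) scale 7 of the 10 were at least 1.5-fold higher in CBR-5884 library 4 than in library 2, beside 4.46% of all tested genes. At 2-fold there were 0 on that scale, beside 1.48%, and the median TPM ratio was 1.98. Coro1a had 15.6 and 11.7 against 12.0 and 12.3 TPM, and Ctss 4.85 and 5.52 against 3.56 and 5.98 TPM. Of 5 genes of surface and rete epithelium 2 were tested (12.9 to 17.3 TPM), Pax8 with 8.83 and 8.66 against 8.92 and 13.2 TPM and Krt19 with 5.08 and 3.54 against 3.09 and 2.47 TPM. With limma 0 genes of these lists passed an adjusted p under 0.05, and at an unadjusted p under 0.05 there were 2 of 46 tested, beside 3.66% of all tested genes, Erg and Spi1, the latter named after its values were seen (2.00 and 4.47 against 1.07 and 1.11 TPM).

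Some genes outside every list had the same order of libraries. They were picked for their values, and those described below also for what is known of them, so they carry no test. The order with DMSO library 2 highest and DMSO library 4 lowest held for 11.0% of all tested genes. Among the genes picked, S100a11 (3.04), Dynlt2a1 (2.67) and Pla2g5 (2.39) had the widest ratios of highest to lowest TPM. Cstdc1, a cystatin gene like Cst9, had 15.4 and 7.04 TPM in DMSO libraries 2 and 4 and 13.6 and 9.22 TPM in CBR-5884 libraries 2 and 4. Anxa5, annexin A5, had 18.6 and 8.97 against 12.8 and 10.7 TPM. The order with CBR-5884 library 4 highest and library 2 lowest held for 7.46% of all tested genes. Zfp986 (6.90), Kpna2 (2.96), Ndrg2 (2.67) and Trim12c (2.52) had it with wider ratios than Apoe (2.50). Apoe, the apolipoprotein that tissue macrophages make in quantity, had 109 and 108 TPM in controls against 70.1 and 175 TPM in CBR-5884 libraries 2 and 4.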
